A study of Mus musculus with 9 samples.

Results

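The miRNAs of the miR-297, miR-466, miR-467 and miR-669 families were described across 9 microarrays of mouse olfactory bulb. Every mouse probe whose name holds one of these family names, with any letter and any arm, was taken by name alone. The families themselves were chosen with earlier results of these data known. This gave 70 probes of the 1027 mouse miRNA probes on the array: 4 for miR-297, 26 for miR-466, 13 for miR-467 and 27 for miR-669. The probe names end in -3p for 29 members and in -5p for 30, and carry no arm for 11. Of the names, 9 are written with a slash and cover several miRNAs that 1 probe captures. All tissue came from male ICR mice, an outbred stock, aged 8 weeks. The control group (replicates 1, 2 and 3) was housed in the same way without formaldehyde. The FA 1 day group (replicates 1, 2 and 4) and the FA 7 days group (replicates 1, 2 and 3) breathed 3 ppm formaldehyde for 6 hours a day, for 1 day and for 7 consecutive days. Each array was hybridised with total RNA carrying the Hy3 dye in a single colour. The labels do not say whether the samples of a group came from separate animals or pools, so p-values measure only the spread between these samples, which may be technical.

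Sfmbt2 encodes a polycomb-group protein and is imprinted, with expression from the paternal allele in early embryos and placenta. One of its introns holds a large tandem array of miRNA genes that is found in rodents and not in humans, and that lies in repeats rich in alternating UG and CA. A miRNA hairpin is cut into a 5p and a 3p strand, of which either can be loaded into Argonaute, and the bases near the 5′ end of the loaded strand, the seed, pair with target mRNAs. Among the members studied in mouse cells, miR-466l has been tied to the stability of Il10 mRNA in macrophages, miR-466h to cell death when glucose is short, miR-669a to repression of MyoD and miR-467b to lipoprotein lipase in macrophages. Array probes for repeat-like miRNAs can capture close relatives of similar sequence, so a value belongs to a probe and not to 1 proven mature miRNA.

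The name of the host gene holds for most of the probes and not for all. RefSeq for assembly GRCm38.p6 lists 82 miRNA genes of these names, of which 72 lie inside Sfmbt2 and 10 lie elsewhere. Of the 70 probes, 57 have all their genes inside Sfmbt2, 8 have theirs elsewhere, and 5 have copies in both places. Tandem copies are frequent: miR-669a has 12 genes, miR-467a has 10, miR-466b has 8, and miR-297a and miR-466f have 4 each. A probe for such a miRNA sums over its copies.

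Mature sequences of 7 member probes were matched in the RefSeq miRNA table (GRCm38.p6), and all 7 belong to genes outside Sfmbt2. They are shown because they carry the repeat character of the families and because their seeds, bases 2 to 8 in capitals, can be set side by side.
miR-466i-3p: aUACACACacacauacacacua
miR-467f: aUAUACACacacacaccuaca
miR-467g: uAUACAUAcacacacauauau
miR-669n: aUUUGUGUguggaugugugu
miR-466j: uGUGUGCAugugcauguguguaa
miR-466k: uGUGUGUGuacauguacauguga
miR-467h: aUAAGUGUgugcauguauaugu
The loci are chr13:17747552-17747573 on the plus strand for miR-466i-3p, chr11:69635419-69635439 on the minus strand for miR-467f and chr5:34732872-34732892 on the minus strand for miR-467g. Those of miR-669n (chr3:115979905-115979924), miR-466j (chr10:60960802-60960824), miR-466k (chr3:85467396-85467418) and miR-467h (chr9:115381898-115381919) are on the plus strand. The first 3 are built of C and A, which make up 86.4% of miR-466i-3p, 85.7% of miR-467f and 71.4% of miR-467g. The other 4 are rich in U and G, from 68.2% in miR-467h to 90% in miR-669n. No 2 of the 7 seeds are identical, so these probes fall into 7 seed groups. A run of 4 UG, GU, CA or AC dinucleotides was present in 5 of the 7 (miR-466i-3p, miR-467f, miR-467g, miR-669n and miR-466k) and in 11 of the 796 mouse probes with a mature sequence (1.38%). On the arrays, miR-466i-3p, miR-467f, miR-467g and miR-669n were detected on all 9, miR-466j on 7, and miR-466k and miR-467h on none.

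Control replicate 2 and FA 7 days replicate 3 stood apart from the other arrays, and the shifts of the cluster and the main members are therefore also given without them. Both arrays were picked from these same data. Of the 44 tested members, 33 (75%) were highest on 1 of these 2 arrays, against 40.5% of all tested probes. Removing arrays with high members itself moves the differences, so values without them are descriptions and no independent check. A probe's median signal above local background over its 4 replicate spots is called its net signal here, and a probe was called detected on an array where this was at least 30 intensity units. Levels are normalised log2 intensities (background-corrected, averaged over spots and quantile normalised), and a deviation is a level minus the same probe's mean over the 9 arrays. Each array was also set against the mean of the other 8. The root mean square of this difference over the 459 tested mouse probes reached 0.88 log2 units for control replicate 2 and 0.64 for FA 7 days replicate 3. It lay between 0.30 and 0.46 on the other 7 arrays. The spike-in probes read lowest on the same arrays, with unnormalised log2 medians of 7.77 and 7.24 against 8.15 to 9.10 elsewhere. Over the 352 probes detected on all arrays, the median net signal was 224 units on FA 7 days replicate 3, the lowest of the 9, against 281 to 440 elsewhere. Net signal of miR-124-3p, the neuronal miRNA of the brain, ran from 19503 to 65495 units, and miR-9-5p and miR-128-3p were detected on all 9 arrays too. Replicate spots were uneven on some arrays: on FA 7 days replicate 1, 9 of the 44 tested members (20.5%) and 87 of the 459 tested probes (19%) held at least 1 dim spot, whose net signal was exceeded over 3 times by the probe's second-brightest spot. Over the other 8 arrays 4 members in all held such a spot, with 2 of these for control replicate 3 and 2 for FA 7 days replicate 3. Values without these spots, a choice made after the data were seen, are given for some of the named members.

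The cluster was detected more fully than the rest of the mouse probes. Of its 70 members, 36 (51.4%) were detected on all 9 arrays, compared with 316 of the other 957 mouse probes (33.0%). Another 12 members were detected on some arrays, and 22 (31.4%) on none, where 42.2% of the other mouse probes were on none. The miR-669 family was the most completely detected, with 20 of 27 members (74.1%) on all 9 arrays. The miR-466 family had 10 of 26 on all arrays and 10 on none, the miR-467 family 5 of 13 and 4, and the miR-297 family 1 of 4 and 2. These shares are descriptions without a test, since the probes share sequence and host transcript. In bulk tissue, fewer cells that express a miRNA and less of it in each cell cannot be told apart.

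The number of detected members was 42, 45 and 41 on the control arrays. After 1 day of exposure it was 47, 43 and 47, and after 7 days it was 46, 41 and 39. The ranges of the 3 groups overlap, and the array with the fewest detected members, FA 7 days replicate 3, also had the fewest detected mouse probes (400, against 457 to 517 elsewhere). No member was detected on all arrays of 1 group and on none of another. The nearest were probes close to the threshold. MiR-297a-5p was detected on no control, 2 FA 1 day and 1 FA 7 days array, at 6.5 to 41 units, and miR-467c-3p on 1 control array and all 6 exposed arrays. MiR-466n-5p was detected on 2 control, 2 FA 1 day and no FA 7 days arrays, with net signals of 18.5 to 62 units. MiR-467d-3p and miR-669d-2-3p were each detected on 1 control, 3 FA 1 day and 1 FA 7 days array, at 11.5 to 43.5 and 9.5 to 59.5 units. For the 22 members detected nowhere, the highest net signal on any array was 27.5 units.

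**Figure D1:**
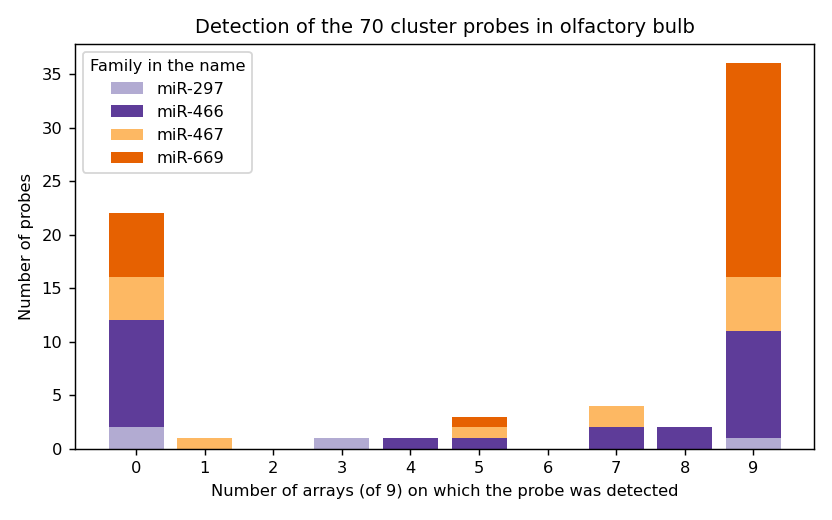
Number of arrays (of 9) on which members of each family were detected, at a net signal of at least 30 intensity units. The miR-669 family has 20 of 27 probes on all 9 arrays, whereas the miR-466 family has 10 on all and 10 on none.

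The arms of the hairpins differed in detection. Among 3p members 18 of 29 (62.1%) were detected on all arrays, and among 5p members 13 of 30 (43.3%), as were 5 of 11 without an arm. Within the miR-669 family these counts were 11 of 13 and 7 of 10. Among the other mouse probes the shares were 36.2% for 3p and 32.4% for 5p, so 3p members led by more within the cluster than outside it, as a description without a test. The array holds 1 probe for each arm of 31 cluster hairpins. Both arms were detected on all arrays for 11 of them. For 6 hairpins, miR-297b, miR-297c, miR-669a, miR-669b, miR-669h and miR-669p, the 3p arm was detected on all arrays and the 5p arm on none. The reverse was seen for miR-466o and miR-669k, both arms of miR-466h and miR-466l were detected on no array, and the remaining 10 hairpins were mixed. Where a slashed name covers several miRNAs, the arm seen can belong to any of them. Members whose genes all lie inside Sfmbt2 were detected on all arrays in 28 of 57 cases and on none in 20. Of the 8 with genes elsewhere, 5 were detected on all arrays and 2 on none.

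The tests covered the 44 members that were detected on all arrays of at least 1 group, and 26 members were not tested. Within groups, the tested members moved together from array to array. MiR-669p-3p, a strand whose 5p partner was not detected, had levels of 9.13, 10.52 and 9.02 in the controls, 9.62, 9.36 and 9.97 after 1 day and 9.23, 8.85 and 10.88 after 7 days. MiR-466f-3p read 9.23, 10.58 and 9.23, then 9.82, 9.59 and 10.07, then 9.33, 9.21 and 11.16. In both, control replicate 2 and FA 7 days replicate 3 were above all other arrays, and every group overlapped the others. The net signals behind miR-466f-3p ranged from 503 to 1342 units, far above the detection threshold. MiR-467e-3p read 8.70, 10.01 and 8.62 in the controls, 8.91, 8.88 and 9.20 after 1 day and 8.86, 8.10 and 9.54 after 7 days. MiR-467g, whose sequence is given above, read 8.81, 9.67 and 8.51, then 9.15, 9.21 and 9.78, then 8.46, 8.62 and 10.58. Its 8.46 on FA 7 days replicate 1 averages spot signals of 15, 1, 760 and 773 units, and without the dim spots it was 9.17. The 8.51 of miR-467g on control replicate 3 averages spots of 8, 316, 403 and 399 units and was 8.82 without the dim spot. With all spots, levels within the control group and within the 7-day group thus spanned over 1 log2 unit for each of these miRNAs. Without the dim spots, the control levels of miR-467g ran only from 8.82 to 9.65.

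**Figure D2:**
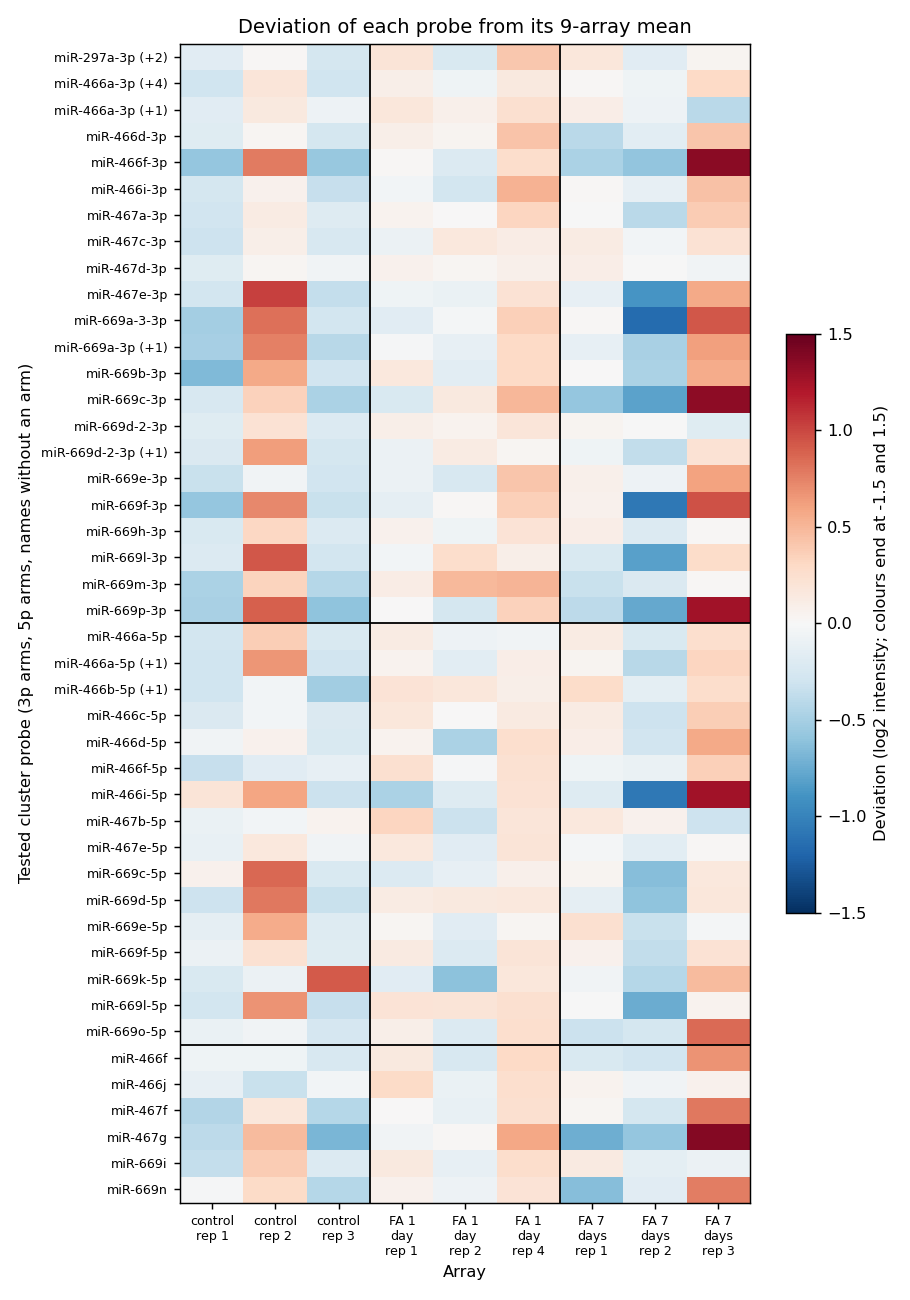
Deviation of each of the 44 tested members (rows, grouped as 3p, 5p and names without an arm) from its own 9-array mean, in log2 units, on the 9 arrays (columns). A number in brackets counts further miRNAs in the probe's name. Red columns stand at control replicate 2 and FA 7 days replicate 3, and blue ones at control replicates 1 and 3 and FA 7 days replicate 2.

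Counted over all tested members, 40 of 44 (90.9%) were higher on control replicate 2 than on both other control arrays, where 39.9% of all 459 tested probes were. On FA 1 day replicate 4 the count was 34 of 44 (77.3%, against 27.5%), and on FA 7 days replicate 3 it was 35 of 44 (79.5%, against 44.2%). On FA 7 days replicate 2, 35 of 44 (79.5%) were lower than on both partners, where 32.5% of all tested probes were. The median deviation of the members was -0.25, 0.26 and -0.27 log2 units on control replicates 1, 2 and 3. It was 0.06, -0.09 and 0.23 on FA 1 day replicates 1, 2 and 4, and 0.02, -0.28 and 0.34 on FA 7 days replicates 1, 2 and 3. Over the 415 other tested mouse probes the median deviation stayed between -0.14 and 0.08. The cluster's share of the summed net signal of mouse probes followed the same order within groups: 2.66%, 3.80% and 2.49% in the controls, 3.40%, 2.68% and 4.30% after 1 day, and 2.66%, 1.77% and 5.41% after 7 days. Without any normalisation between arrays, FA 7 days replicate 3 was above both partners for 11 of the 44 members in place of 35, and FA 7 days replicate 1 for 33. Relative to the other mouse probes, the cluster stood higher on control replicate 2 (by 0.37 to 0.56) and FA 7 days replicate 3 (by 0.33 to 0.54), and lower on FA 7 days replicate 2 (-0.62 to -0.30), under all 8 settings of background, spots and scaling computed.

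Other measures moved with these arrays. The low spike-in readings given above belonged to the arrays where most members were high in 2 of the groups, while FA 7 days replicate 2, where members were lowest, had a spike-in median of 8.89. The neuronal miRNAs miR-9-5p and miR-128-3p deviated by -1.19 and -1.30 log2 units on control replicate 2 but by 0.35 each on FA 7 days replicate 3. On control replicate 2 the leukocyte miRNAs miR-142-3p and miR-150-5p deviated by -2.59 and 0.50, the oligodendrocyte miRNAs miR-219-5p and miR-338-3p by -1.27 and -0.58, and the muscle miRNA miR-133a-3p by 1.05. On FA 7 days replicate 3 the same 5 deviated by -0.21 (miR-142-3p), 0.24 (miR-150-5p), -0.26 (miR-219-5p), -0.16 (miR-338-3p) and -0.21 (miR-133a-3p). On control replicate 2, miR-223-3p (leukocyte), miR-451 and miR-144-3p (red blood cell) and miR-205-5p and miR-203-3p (epithelium) deviated by -0.21, 0.37, 0.67, -0.32 and -0.42. In the same order, they deviated by -0.83, 0.08, -0.98, 0.62 and -0.07 on FA 7 days replicate 3. Of the 13 marker miRNAs found on the array by name, 10 were detected on all 9 arrays, among them the red blood cell miRNAs miR-451 and miR-144-3p. The other 3 were detected on 8 arrays (miR-219-5p) or 6 (miR-133a-3p and the epithelial miR-205-5p), at net signals of at most 290 units. The part of tissue make-up and of array quality in the cluster's pattern was not tested.

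**Figure D3:**
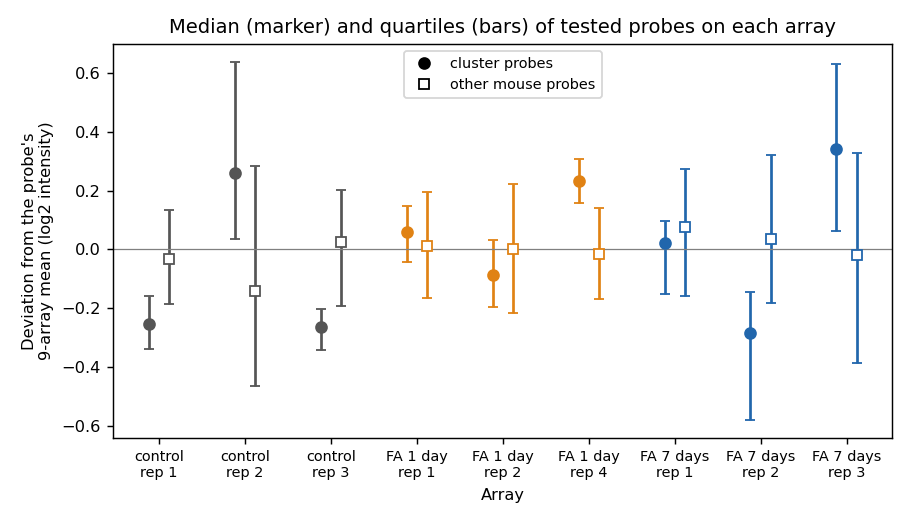
Median deviation from the 9-array mean (log2 units) on each array, for the 44 tested members (filled circles) and the 415 other tested mouse probes (open squares), with bars from the lower to the upper quartile over probes. Members reach medians of 0.26 (control replicate 2) and 0.34 (FA 7 days replicate 3), while the other mouse probes stay within -0.14 to 0.08.

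Both arms carried this pattern. All 22 tested 3p members were higher on control replicate 2 than on both other controls, by a median of 0.62 log2 units against the mean of the 2, and 13 of 16 tested 5p members were, by a median of 0.37. On FA 7 days replicate 3, 17 of 22 3p members and 13 of 16 5p members were above both partners, by medians of 0.59 and 0.45. A pooled SD within groups above 0.6 log2 units was seen for 8 members (18.2% of 44, against 16.1% of the 459), which were singled out after their values were seen: miR-669p-3p, miR-467g, miR-466f-3p, miR-466i-5p, miR-669c-3p, miR-669a-3-3p, miR-669f-3p and miR-467e-3p. MiR-669c-3p read 9.15, 9.74 and 8.91 in the controls, 9.16, 9.53 and 9.89 after 1 day and 8.81, 8.59 and 10.73 after 7 days, where the 8.81 holds a dim spot and was 9.01 without it. MiR-669a-3-3p read 8.76, 10.09 and 8.99, then 9.10, 9.24 and 9.62, then 9.29, 8.11 and 10.19. MiR-669f-3p read 8.92, 10.22 and 9.16, then 9.36, 9.51 and 9.86, then 9.56, 8.42 and 10.46. For both miR-669a-3-3p and miR-669f-3p the lowest of all 9 arrays was FA 7 days replicate 2 and the highest FA 7 days replicate 3, within 1 group. MiR-466i-5p, the partner strand of miR-466i-3p, read 10.88, 11.29 and 10.37 in the controls, 10.22, 10.50 and 10.91 after 1 day and 10.50, 9.62 and 11.95 after 7 days. Its partner miR-466i-3p varied less, at 8.27, 8.60 and 8.19, then 8.50, 8.26 and 9.06, then 8.56, 8.42 and 8.97. Others of the 25 members named for their mean level varied less. MiR-669n, shown above, read 9.28, 9.59 and 8.87 in the controls, 9.36, 9.23 and 9.51 after 1 day and 8.66, 9.13 and 10.07 after 7 days, again with FA 7 days replicate 3 on top. The 8.66 averages spots of 4, 241, 790 and 817 units and was 9.23 without the dim ones. MiR-669a-3p/miR-669o-3p (8.12 to 9.38 over the 9 arrays), miR-669b-3p (7.95 to 9.17), miR-466a-5p/miR-466p-5p (7.64 to 8.71) and miR-669f-5p (7.81 to 8.41) were highest on control replicate 2. MiR-669o-5p (8.40 to 9.57), miR-466f (8.03 to 8.99), miR-467a-3p (7.51 to 8.29) and the probe shared by miR-466a-3p, miR-466b-3p, miR-466c-3p, miR-466e-3p and miR-466p-3p (7.51 to 8.11) were highest on FA 7 days replicate 3. The 8.40 of miR-669o-5p, on FA 7 days replicate 1, holds a dim spot and was 8.70 without it. The median SD within groups of the tested members was 0.35 in the controls, 0.20 after 1 day and 0.38 after 7 days, close to the 0.34, 0.18 and 0.32 of the other tested mouse probes.

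**Figure D4:**
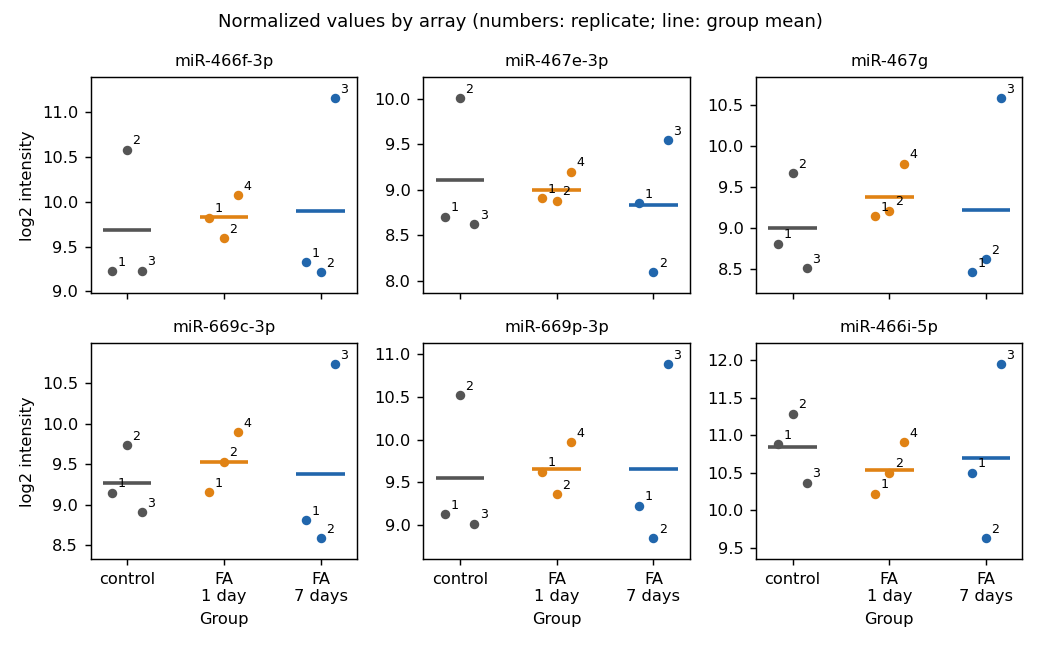
Normalised log2 intensity of 6 of the 8 members with the widest spread within groups, 1 point per array numbered by replicate, with a line at the mean of each group (n = 3). FA 7 days replicate 3 gives the highest point of its group for each of them, and the groups overlap in all 6.

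The first comparison asked what 1 day of formaldehyde did to these miRNAs. After 1 day, 36 of 44 members lay above the control mean (81.8%, against 57.5% of all 459 probes), by a median of 0.16 log2 units (0.06 over all probes) and within a range of -0.41 to 0.57. None passed limma's test at an adjusted p of 0.05, and neither did any of the 459 probes (0% called). At an unadjusted p under 0.05 limma called 0 members and 28 of all probes (6.1%). The groups did not overlap for 4 members, all higher after 1 day (9.09%, against 10.7% of all probes), and for none that was lower (4.14% of all probes). In either direction 14.8% of all probes did not overlap, so the members' share was below the background.

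MiR-466b-5p/miR-466o-5p, which 1 probe captures, read 6.80, 7.06 and 6.58 in the controls and 7.30, 7.27 and 7.19 after 1 day. Every FA 1 day array was above every control, and the means differed by 0.44 ± 0.20 (SE; means 7.25 ± 0.06 and 6.82 ± 0.24, SD, n = 3 each; adjusted p = 0.67, limma). The net signals were low, at 39 to 81 units in the controls and 86.5 to 93 after 1 day, and control replicate 3 held 1 spot of -44 units. The difference was 0.36 without that spot, 0.15 under median scaling, 0.14 without normalisation and 0.56 ± 0.16 without the arrays that stood apart. The groups did not overlap when the spot was left out. MiR-669m-3p, a member of the most fully detected family, read 7.14, 7.95 and 7.18 in the controls and 7.73, 8.11 and 8.13 after 1 day. Here control replicate 2 lay inside the exposed range, and the mean difference of 0.57 ± 0.25 had an adjusted p of 0.67 (limma, n = 3 each). Without control replicate 2 and FA 7 days replicate 3 the same difference was 0.83 ± 0.16 (adjusted p = 0.19, limma, with 0.14 to 1.00 over all alternatives). MiR-466f-5p read 6.36, 6.54 and 6.58, then 6.95, 6.69 and 6.93, a difference of 0.37 ± 0.19 at net signals of 22 to 60 units, near the detection threshold. Its groups did not overlap, and the difference vanished when arrays were scaled by their median (-0.0007). MiR-466c-5p read 6.68, 6.85 and 6.68, then 7.07, 6.91 and 7.03, also without overlap and also dim, at 34.5 to 69 units. MiR-466d-3p was the remaining non-overlapping member. MiR-466j, the UG-rich strand of a gene outside Sfmbt2, read 6.66, 6.45 and 6.74, then 7.07, 6.68 and 7.03, with a difference of 0.31 ± 0.18 that also turned under median scaling (-0.014).

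Among members below the control mean, those with the smallest p rested mostly on 1 control array. MiR-669k-5p read 8.71, 8.86 and 9.87 in the controls and 8.78, 8.33 and 9.11 after 1 day, a difference of -0.41 ± 0.37. The high control value came from 1 spot of 4, with spot signals of 253, 252, 2570 and 336 units, and the median over spots gave a difference of 0.0081 in its place. MiR-669c-5p read 9.86, 10.66 and 9.56, then 9.59, 9.67 and 9.87, a difference of -0.32 ± 0.32 that was -0.0034 without control replicate 2. MiR-466i-5p, with the values above, differed by -0.30 ± 0.53. MiR-669e-5p differed by -0.11 ± 0.25 and turned to 0.13 without control replicate 2. In each case the groups overlapped.

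Array replicates set the size of the cluster's shift after 1 day. Its median was 0.34 without control replicate 2, with 41 of 44 members higher. It was 0.0537 without control replicate 1 (0.0375 over all probes). Without control replicate 3 it was 0.0876, below the 0.0905 of all probes. It was 0.23 without FA 1 day replicate 2 (0.08 over all probes) and 0.07 without FA 1 day replicate 4 (0.05 over all probes). Without both arrays that stood apart it was 0.34 (0.03 over all probes), with 14 of 44 members at an unadjusted p under 0.05 (13.9% of all probes) and 0 past the adjusted threshold (smallest adjusted p = 0.19, limma). Those arrays were picked from these same data, and most members were highest on 1 of them. Median scaling in place of quantile normalisation split the members into 22 higher and 22 lower, with a median of 0.02 while all probes moved to -0.10, and no normalisation gave the same split with all probes at -0.11. Quantile normalisation over all probes, unnamed ones included, gave 40 higher and 4 lower, with the median of all probes at 0.17. The members' median was above that of all probes under each of these scalings.

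The second comparison set 7 days of exposure against the same 3 control arrays, so it shares their deviations with the first. After 7 days, 30 of 44 members lay above the control mean (68.2%, against 58.2% of all probes), with a median of 0.07 (0.06 over all probes) and a range of -0.41 to 0.42. Limma called 0 members and 0 of the 459 probes at an adjusted p of 0.05 (0%), and 0 members and 20 probes (4.36%) at an unadjusted p under 0.05. With all spots, miR-466f-5p alone had groups without overlap (1 of 44, 2.27%, against 8.71% of all probes). It read 6.65, 6.60 and 7.07 after 7 days, higher than control by 0.28 ± 0.19. No member was lower without overlap (1.53% of all probes), and in either direction 10.2% of all probes did not overlap. The difference of miR-466f-5p was 0.15 without the arrays that stood apart and -0.0095 under median scaling. Its 6.65, on FA 7 days replicate 1, averages spot signals of 1, 1, 88 and 62 units and was 6.95 without the dim spots. Leaving out dim spots also parted the groups of miR-466j, at 6.67, 6.44 and 6.73 in the controls and 6.94, 6.75 and 6.85 after 7 days.

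MiR-466b-5p/miR-466o-5p read 7.38, 6.96 and 7.37 after 7 days, above the control mean by 0.42 ± 0.20 (adjusted p = 0.71, limma, n = 3 each). Control replicate 2 lay above FA 7 days replicate 2, so the groups overlapped. The difference was 0.48 without the arrays that stood apart, 0.31 without the deviant control spot, 0.14 under median scaling and 0.10 without normalisation. MiR-669e-3p read 7.21, 7.50 and 7.26 in the controls and 7.63, 7.47 and 8.15 after 7 days, a difference of 0.42 ± 0.25 (0.31 without the arrays that stood apart). MiR-467f, the CA-rich strand shown above, read 7.89, 8.49 and 7.90, then 8.35, 8.06 and 9.11, a difference of 0.42 ± 0.30 (0.31 without them). Below the control mean stood miR-669c-5p (-0.38 ± 0.32), miR-669l-3p (-0.41 ± 0.37), miR-669l-5p (-0.25 ± 0.32) and miR-669d-5p (-0.24 ± 0.33), all with overlapping groups. Control replicate 2 was the highest control in each of these 4. On FA 7 days replicate 3, miR-669c-5p held a dim spot of 34 units, and its level of 9.95 was 10.32 without that spot. Without control replicate 2, miR-669l-5p stood at 0.08 and miR-669d-5p at 0.13.

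The direction of the cluster as a whole was not settled at 7 days. Its median was -0.12 without FA 7 days replicate 3 and 0.24 without FA 7 days replicate 2. It was 0.24 without control replicate 2, -0.04 without control replicate 1 and -0.03 without control replicate 3. Without both arrays that stood apart it was 0.07, below the 0.09 of all probes. Median scaling gave 16 higher and 28 lower, no normalisation 14 and 30, the deposited ratios 24 and 20, and quantile normalisation over all probes 34 and 10, in place of 30 and 14. The median of all 459 probes moved to -0.05, -0.09, -0.04 and 0.15 under these 4 settings, and that of the members to -0.07, -0.11, 0.09 and 0.18.

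**Figure D5:**
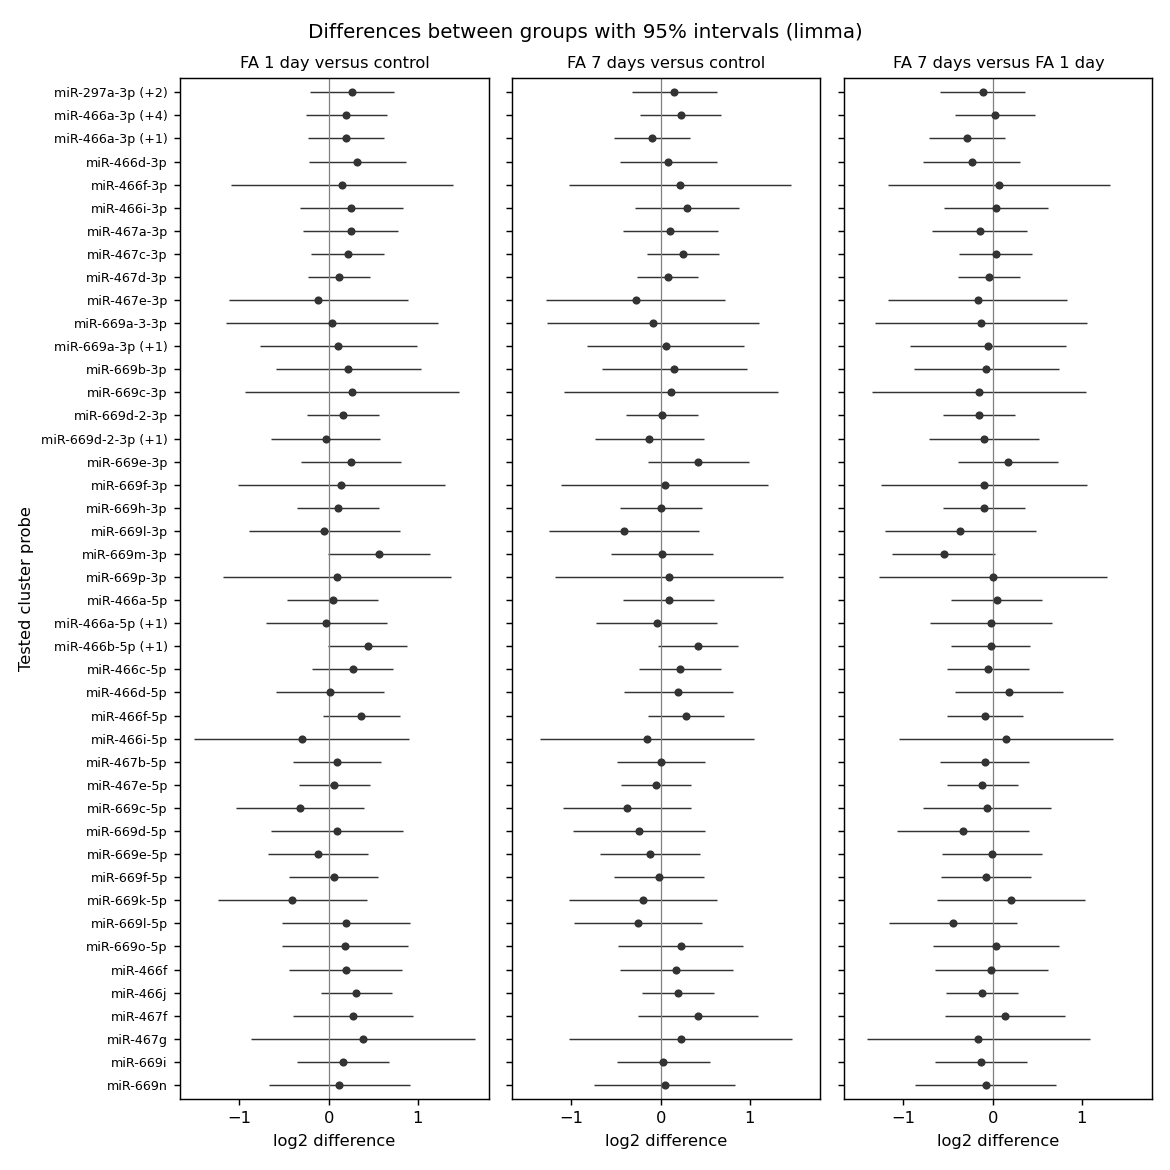
Log2 difference of each tested member in the 3 comparisons, with bars for the 95% confidence interval from limma. Intervals of all 44 members include 0 in each comparison.

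The third comparison asked whether the members differed between 7 days and 1 day. Of the 44, 32 lay lower at 7 days and 12 higher (27.3% above 0, against 49.2% of all probes), with a median of -0.07 (-0.0026 over all probes) and a range of -0.55 to 0.21. Limma called 0 members and 0 of the 459 probes at an adjusted p of 0.05 (0%), and 0 members and 38 probes (8.28%) at an unadjusted p under 0.05. MiR-669m-3p, miR-669l-5p and miR-669d-2-3p had groups without overlap, each lower at 7 days (3 of 44, 6.82%, against 8.28% of all probes). None was higher without overlap (11.8% of all probes), and in either direction the share of all probes was 20%.

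MiR-669m-3p read 7.28, 7.40 and 7.64 after 7 days, each below the 7.73, 8.11 and 8.13 of the 1-day arrays. The 7.28, on FA 7 days replicate 1, averages spot signals of -2, 32, 191 and 200 units. Without the dim spots it was 7.80, the groups overlapped, and the difference was -0.38 ± 0.25 (adjusted p = 0.78, limma). With all spots the difference was -0.55 ± 0.25 (adjusted p = 0.56, limma, n = 3 each), and -0.65 ± 0.16 without the arrays that stood apart (adjusted p = 0.12, limma, with 0.067 to 1 over all alternatives). Its 7-day values lay within the control range of 7.14 to 7.95. MiR-669l-5p read 8.73, 8.71 and 8.77 after 1 day and 8.52, 7.78 and 8.58 after 7 days, a difference of -0.44 ± 0.32. MiR-669d-2-3p differed by -0.15 ± 0.18 at net signals of at most 49.5 units on these 6 arrays. MiR-466a-3p/miR-466e-3p (-0.29 ± 0.19) and miR-669d-5p (-0.33 ± 0.33) had overlapping groups with all spots. Without the dim spots, the groups of miR-466a-3p/miR-466e-3p did not overlap. They read 7.35, 7.23 and 7.43 after 1 day and 7.21, 7.09 and 6.84 after 7 days. The net signal of this probe on FA 7 days replicate 3 was 21 units, below the detection threshold. Without the dim spots, the share of all probes whose groups did not overlap was not computed. On the higher side, miR-669k-5p (0.21), miR-466d-5p (0.18), miR-669e-3p (0.17) and miR-467f (0.14) all rested on FA 7 days replicate 3, and without it they stood at -0.031, -0.037, -0.030 and -0.16.

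The median of the third comparison was -0.21 without FA 7 days replicate 3, where 43 of 44 members lay lower, and 0.13 without FA 7 days replicate 2. It was 0.02 without FA 1 day replicate 4, -0.15 without FA 1 day replicate 2 and -0.04 without FA 1 day replicate 1. Without both arrays that stood apart, 9 of 44 members had an unadjusted p under 0.05 (20.9% of all probes) and 0 passed the adjusted threshold (smallest adjusted p = 0.12, limma). The choice of those arrays came from these same data. The precision of all 3 comparisons was limited by the number of arrays. The median SE of a member's difference was 0.26 log2 units, so the median 95% interval, unadjusted, reached 0.59 to either side. Differences well below that size were not detectable for a typical member, and larger ones could miss the adjusted threshold too. MiR-291b-3p, outside the cluster, differed by 0.79 ± 0.21 after 1 day at an adjusted p of 0.64 (limma).

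Groups of miRNAs outside the cluster were set beside it, without a test over the group. The AAGUGC-seed relatives are the miR-17, miR-290 and miR-302 kin, which share their seed core with miR-467a and are known for promoting the cell cycle in stem cells. No sequence of miR-467a was matched here. Its 3p probe was tested, and its 5p probe, detected on 1 array, was not, so the tested value need not carry that core. Of the 14 probes, 6 were detected on all arrays and 6 on none, and 0 of the 8 tested passed limma's adjusted threshold in any comparison. After 1 day 7 of the 8 lay above control, by a median of 0.63, and between 7 days and 1 day all 8 lay lower, by a median of -0.47. Without the arrays that stood apart these medians were 0.42 and -0.20. The smallest p among them was that of miR-291b-3p, with differences of 0.79 ± 0.21 (adjusted p = 0.64, limma) and -0.60 ± 0.21 (adjusted p = 0.42, limma). MiR-106a-5p followed after 1 day at 0.63 ± 0.23 (adjusted p = 0.67, limma), and miR-20a-5p between 7 days and 1 day at -1.22 ± 0.61 (adjusted p = 0.61, limma). On control replicate 2 the median deviation of the relatives was -0.30, and -0.59 was its value for FA 7 days replicate 3, opposite in sign to the cluster's 0.26 and 0.34. The second group comprised the 6 mouse probes outside the cluster whose mature sequence holds the same dinucleotide run, of which miR-574-5p is shown for comparison with the members above, at chr5:64970328-64970350 on the plus strand.
miR-574-5p: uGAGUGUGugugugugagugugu
Of these 6, 5 were detected on all arrays (miR-32-3p, miR-574-5p, miR-672-5p, miR-1187 and miR-3082-5p), and miR-3097-5p on none. None of the 5 passed the adjusted threshold in limma, with median differences of -0.10, 0.14 and 0.14 in the 3 comparisons. Without the arrays that stood apart these medians were 0.03, -0.10 and -0.35, so all 3 changed sign. Their median deviation was 0.60 on FA 7 days replicate 3 and -0.33 on FA 7 days replicate 2, the same signs as in the cluster, and 0.05 on control replicate 2.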

How the data were processed

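Single-colour Exiqon miRCURY arrays, 3 per group, measured miRNAs in olfactory bulb. The deposited raw table gives foreground and background intensity of 12312 spots on each array, per the file headers. The scanner settings and the image software are not stated in the labels or headers. The deposited ratio table equals, within 1% for 100% of its values, each probe's net intensity divided by 1 factor per array (the median over 301 probes), with no log and no centring, so its scale is linear and its direction that of signal. Its column medians ran from 0.0196 to 0.160.

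From the intensities, spots were background-corrected by normexp (offset 50, limma 3.58.1, R 4.3.3), averaged, quantile normalised over the 1084 probes named as miRNAs, mouse and viral, and put on the log2 scale. The 459 mouse probes detected (net signal of at least 30, median over spots) on all arrays of at least 1 group were fitted in 1 limma model of group means over all 9 arrays, with 3 contrasts, two-sided tests and Benjamini-Hochberg adjustment over the 459. A ± beside a difference is limma's SE. The fit was tested on simulated data with independent noise for each probe and array. That simulation held no shifts shared by the probes of an array, so it does not bear on such shifts.

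The members and lists were chosen with earlier results of these data known. Named were the 25 detected members of highest mean, and in each comparison the 4 higher and 4 lower members with the smallest p. No slide, scan or extraction batch is in the labels. Alternatives covered background, scaling, filters, spots, deviant spots (more than 3 times below or above the second-brightest spot, where that had at least 30 units; chosen after seeing the data), array weights, each array left out and the replicate number as a block. The number of arrays limits the precision.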

Additional observations from a re-analysis of the deposited data

How the results depend on the processing

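The counts of members called, 0 in each comparison, held under every alternative run, with a smallest adjusted p of 0.067 (limma with array weights, 7 days against 1 day, where 23 of the 459 probes passed). The number of members detected on all 9 arrays was 31 at a threshold of 50, 43 at 15, and 35 with the mean over spots, against 36. Leaving out 1 array moved the median difference between 0.0537 and 0.339 after 1 day, between -0.117 and 0.2416 after 7 days, and between -0.2053 and 0.1285 for 7 days against 1 day. Array weights gave 41 higher and 3 lower members after 1 day and 2 and 42 for 7 days against 1 day. Without the detection filter, 6, 3 and 1 of the 70 members had an unadjusted p under 0.05 in limma. The shares over all mouse probes were 6.13%, 6.04% and 7.3%, and 0 members passed the adjusted threshold. Leaving out deviant spots, an alternative chosen after seeing the data, gave medians of 0.1611, 0.0787 and -0.0621.

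Among the named members, 28 values changed sign, and the cause was not tested. For 7 days against 1 day, array weights gave -0.098 for miR-466d-5p, -0.13 for miR-467f, -0.052 for miR-669e-3p and -0.081 for miR-669k-5p. Leaving out both arrays that stood apart gave -0.037, -0.16, -0.030 and -0.031, and leaving out 1 array gave ranges of -0.037 to 0.39, -0.16 to 0.36, -0.030 to 0.37 and -0.031 to 0.42. After 1 day, miR-669e-5p stood at 0.11 with array weights, at 0.13 without both arrays, and between -0.25 and 0.13 with 1 array left out. Median scaling gave -0.0007 for miR-466f-5p and -0.014 for miR-466j, and no normalisation -0.015 and -0.028. MiR-669k-5p stood at 0.034 in the deposited ratios, 0.0081 with the median over spots and 0.040 with deviant spots left out. After 7 days, miR-466f-5p stood at -0.0095 under median scaling and -0.051 without normalisation. With 1 array left out, miR-669d-5p ran from -0.44 to 0.13 and miR-669l-5p from -0.43 to 0.076.

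With the replicate number as a block, limma called 0 members and 0 probes in each comparison, with 14, 6 and 16 probes at an unadjusted p under 0.05 in place of 28, 20 and 38, and member medians of 0.0947, 0.0671 and -0.0197. FA 1 day replicate 4 shares its number with no other array, so this fit in effect leaves it out. The change in these values is therefore not an effect of blocking alone. Samples sharing a number correlated in their deviations by -0.58 to 0.33, and those with different numbers by -0.42 to 0.55. These ranges overlap and the labels name no pairing, so whether a shared number marks a pair cannot be decided here.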

Other observations

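Uneven spots set some readings. MiR-467a-5p was detected on control replicate 2 alone, with spot signals of 292, 207, 76 and 62 units, while its net signal on the other 8 arrays lay between -1.5 and 2. MiR-466h-3p, detected on no array, had 1 spot of 267 units on control replicate 3 beside spots of 2, 1 and -59. Over the 378 combinations of a tested member and an array on which it was detected, the median coefficient of variation between replicate spots was 13.0%. Among the tested members 18 spots were dim, more than 3 times below the second-brightest spot, and 14 of these lay on FA 7 days replicate 1. The spot of miR-669k-5p on control replicate 3 was the 1 that exceeded 3 times the second-brightest.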
